A study of Drosophila melanogaster with 8 samples.

Results

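The 8 Hox genes of Drosophila melanogaster lie in 2 clusters on chromosome arm 3R, and histone H1 enrichment was described over both. The bithorax complex was taken as 3R:12480000-12810000 and the Antennapedia complex as 3R:2480000-2840000, on FlyBase release 5, windows of 330 and 360 kb. Every H1-enriched region that overlapped either window by 1 bp or more was counted as belonging to it. This gave 82 of the 16190 regions in the combined list, 42 in the bithorax complex and 40 in the Antennapedia complex. It also gave 43 of the 11301 regions in the 4 replicate lists, 21 in the bithorax complex and 22 in the Antennapedia complex. No region lay across a window edge.

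Chromatin immunoprecipitation with an antibody to H1, followed by sequencing (ChIP-seq), was done in 4 libraries from whole Oregon-R embryos of wild-type genotype at 14 to 16 h of development, and 4 input chromatin libraries accompanied them. The values analysed were the authors' lists of enriched regions, 1 for each immunoprecipitated library and 1 combined list for the set, so there is no other genotype, treatment or stage to compare. The labels do not tie the 4 replicates to separate collections of embryos, so p-values here measure only the spread between these libraries, which may be technical. Whole embryos hold many tissues in which different Hox genes are active or silent, and the lists give 1 value for all of them together.

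Histone H1 is the linker histone, which binds where DNA enters and leaves the nucleosome and is known for compacting nucleosome arrays. Hox genes encode homeodomain transcription factors that give body segments their identity, and each is kept silent outside its own domain by Polycomb group proteins and active within it by Trithorax group proteins. The long regulatory stretches of both complexes are a textbook case of Polycomb-bound chromatin.

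In the bithorax complex, Ubx specifies the posterior thorax and the anterior abdomen, abd-A the middle abdominal segments, and Abd-B the posterior abdomen and genital segments. In the Antennapedia complex, lab, pb and Dfd act in head segments, Scr in the labial segment and the anterior thorax, and Antp in the thorax. The same cluster holds zen2, zen, bcd, ftz and Ama. Of these, zen and bcd act in early dorsal and anterior patterning, ftz is a pair-rule segmentation gene, and Ama encodes a secreted immunoglobulin-family protein. On 3R the names table (RefSeq, Release 6) orders them as Ubx, abd-A and Abd-B in the bithorax complex and as lab, pb, zen2, zen, bcd, Ama, Dfd, Scr, ftz and Antp in the Antennapedia complex. That table is on another build than the lists, so the regions described here were placed within each complex but were assigned to no single gene.

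H1-enriched regions covered less of both Hox complexes than of the rest of 3R in every replicate list. The same was so in the combined list, which is of the same replicate set and so is not independent of these lists. In the bithorax complex, which holds Ubx, abd-A and Abd-B, regions covered 3.70%, 2.35%, 0.424% and 3.31% of the bases in replicates 1 to 4. In the Antennapedia complex, which holds lab, pb, Dfd, Scr and Antp, they covered 3.18%, 3.08%, 1.48% and 1.60%. On the rest of 3R the covered share was 4.29%, 3.36%, 4.22% and 5.21%. Replicate 3 was the lowest of the 4 in both complexes, although on the rest of 3R it was close to replicate 1. The plot of covered shares shows that all 4 replicates ended higher on the rest of 3R than in either complex.

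The means were 2.45 ± 1.46% in the bithorax complex, 2.34 ± 0.92% in the Antennapedia complex and 4.27 ± 0.755% on the rest of 3R (SD, n = 4 lists). Taken per list, the log2 ratio of the bithorax complex to the rest of 3R was -0.21, -0.52, -3.32 and -0.65, a mean of -1.18 ± 1.44. An exact permutation test that flips the signs of these 4 values (two-sided) gave p = 0.125, adjusted to 0.167 over 4 comparisons (Benjamini-Hochberg). The smallest exact p that 4 lists allow is 0.125, so the design cannot pass a threshold of 0.05. For the Antennapedia complex the log2 ratios were -0.43, -0.13, -1.52 and -1.70, a mean of -0.94 ± 0.78 with the same exact permutation p of 0.125, adjusted 0.167. The complexes joined had 2.39 ± 1.03% covered and a mean log2 ratio of -0.96 ± 0.86, below 0 in 4 of 4 lists, again with an exact permutation p of 0.125, adjusted 0.167.

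**Figure D1:**
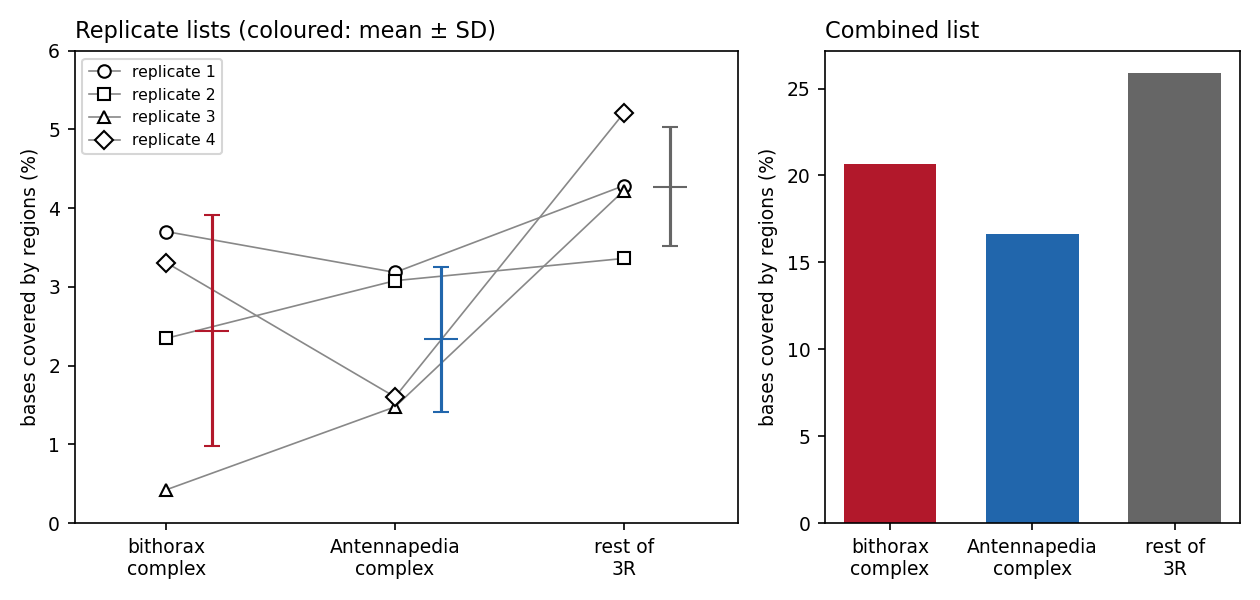
Bases covered by H1-enriched regions, in percent, in the bithorax complex, the Antennapedia complex and the rest of 3R. Left, the 4 replicate lists joined by lines, with coloured marks for the mean ± SD (n = 4); right, the combined list, at 20.7%, 16.6% and 25.9%.

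Replicate 3 set much of the bithorax value. Its list placed 1 region in the 330 kb of the bithorax complex, 3R:12616540-12617938, 1399 bp wide, which no other list touched, the combined list included. Without replicate 3 the mean log2 ratio of the bithorax complex to the rest of 3R was -0.46, and that of both complexes together was -0.58. The labels give low experiment numbers to replicates 1 and 2 and higher ones to replicates 3 and 4, without saying what the numbers stand for. In replicates 1 and 2 alone the mean log2 ratio was -0.36 for the bithorax complex and -0.28 for the Antennapedia complex. In replicates 3 and 4 alone it was -1.99 and -1.61. Both pairs gave ratios below 0, larger in size in the second pair, and the part of the experiment numbers in this was not tested.

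The covered shares of the 2 complexes differed by less than the spread between replicates. The log2 ratio of the bithorax to the Antennapedia complex was 0.22, -0.39, -1.80 and 1.05 in replicates 1 to 4, a mean of -0.23 ± 1.20. It was below 0 in 2 of 4 lists, with a two-sided exact permutation p of 0.75, adjusted 0.75. The mean was -0.09 in replicates 1 and 2 and -0.38 in replicates 3 and 4. In the combined list the bithorax complex was the more covered, at 20.7% against 16.6%, a log2 ratio of 0.31.

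The combined list, which is not independent of the replicate lists, covered far more of both complexes than any of them. Its share in both complexes was also below that on the rest of 3R. Its regions covered 20.7% of the bithorax complex against 25.9% of the rest of 3R, a ratio of 0.799. They covered 16.6% of the Antennapedia complex, a ratio of 0.643. In the combined list the regions were narrower than elsewhere. They were nearly as frequent in the bithorax complex and less frequent in the Antennapedia complex. There were 12.7 regions per 100 kb in the bithorax complex and 11.1 in the Antennapedia complex, against 13.2 on the rest of 3R, ratios of 0.963 and 0.841. The mean width was 1624 bp in the bithorax complex and 1498 bp in the Antennapedia complex, against 1958 bp on the rest of 3R. The median widths were 1452 and 1450 bp, against 1605 bp on the rest of 3R. In the replicate lists the complexes had fewer regions, at 1.59 ± 0.94 (bithorax) and 1.53 ± 0.48 (Antennapedia) per 100 kb (SD, n = 4). The rest of 3R had 2.55 ± 0.44. The mean widths in the replicate lists were 1509 ± 75 and 1498 ± 140 bp, against 1672 ± 9 bp on the rest of 3R. The lists have a lower limit on width, with the narrowest region at 1001 bp in the combined list and 1301 bp in the replicate lists.

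Among windows of 3R of the same length, both complexes lay below the median in the replicate mean and in the combined list, with other windows below them. For the mean of the 4 replicate lists, 20 of 80 other windows of 330 kb (25%) were less covered than the bithorax complex at 2.45%, against a window median of 3.56% and a range of 0.108% to 12.0%. For the Antennapedia complex at 2.34%, 15 of 73 windows of 360 kb (20.5%) were less covered, against a median of 3.90%. In the combined list 25 of 80 windows (31.25%) were less covered than the bithorax complex and 15 of 73 (20.5%) less than the Antennapedia complex, against window medians of 24.3% and 24.7%. Between single lists the place of the bithorax complex differed widely, with 52.5%, 38.75%, 6.25% and 28.75% of windows below it in replicates 1 to 4. For the Antennapedia complex these shares were 38.4%, 49.3%, 20.5% and 9.59%. In replicate 1 the bithorax complex was therefore near the middle of the arm, and in replicate 3 near its bottom. When only the regions at or above each list's median score were kept, both places moved down in the replicate mean, with 7.5% of windows below the bithorax complex and 12.3% below the Antennapedia complex. The windows are not replicates, and no p-value was taken from them.

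**Figure D2:**
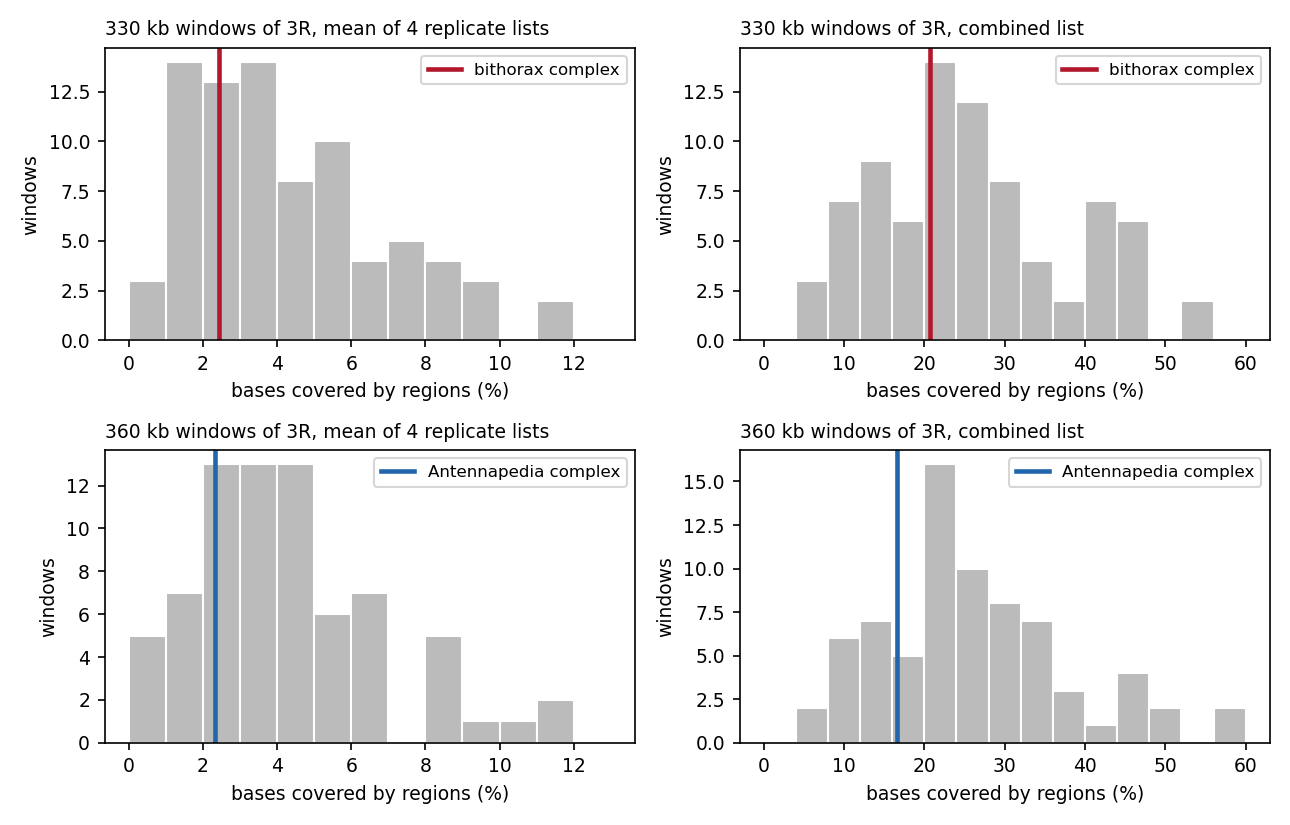
Histograms of the bases covered (percent, x axis) in non-overlapping windows of 3R with the length of the bithorax complex (top, 80 windows) or of the Antennapedia complex (bottom, 73 windows), for the mean of the 4 replicate lists (left) and the combined list (right). The coloured line marks the complex, which lies below the window median in each of the 4 panels.

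The neighbourhood of each complex was also more covered, on most sides. In the bithorax complex 2.45 ± 1.46% was covered, against 5.52 ± 1.27% in its flanking windows of the same length, both sides joined. The log2 ratio was -1.54 ± 1.41, below 0 in 4 of 4 lists, with an exact sign-flip permutation p of 0.125, adjusted 0.125 over the 2 complexes. Without replicate 3 it was -0.85. The flanks of the bithorax complex were unequal, with 2.60 ± 0.92% on the low-coordinate side and 8.44 ± 2.69% on the high-coordinate side. In the Antennapedia complex 2.34 ± 0.92% was covered, against 4.84 ± 0.755% in its flanks, with 4.35 ± 1.78% on the low side and 5.33 ± 0.84% on the high side. Its log2 ratio was -1.13 ± 0.70, also below 0 in 4 of 4 lists, with an exact sign-flip permutation p of 0.125, adjusted 0.125. The low-coordinate flank of the bithorax complex was the exception. The complex was more covered than this flank in replicates 1, 2 and 4, at 3.70%, 2.35% and 3.31% against 2.71%, 1.53% and 2.39%, and less covered in replicate 3, at 0.424% against 3.76%. In the combined list the bithorax complex, at 20.7%, was above that flank, at 15.2%, and below the other, at 39.4%. With flanks of 100 kb the bithorax comparison turned round, at 2.45% covered in the complex against 2.14% in its flanks.

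The map of regions shows where they fell within each complex. Regions of the combined list were spread unevenly, with long stretches that held none. Along the bithorax complex they were dense in the high-coordinate part. Along the Antennapedia complex they thinned towards the high-coordinate end.

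**Figure D3:**
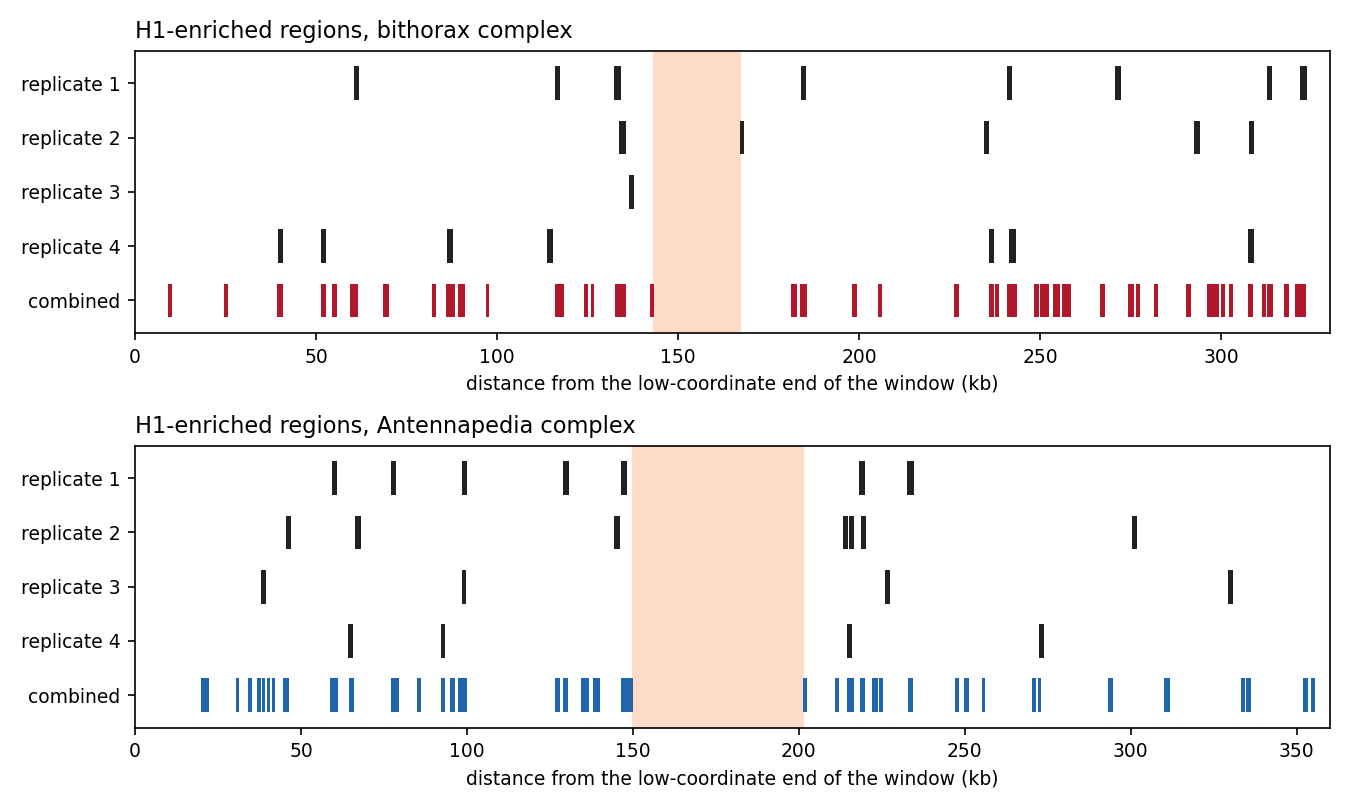
H1-enriched regions of the 4 replicate lists (black) and the combined list (coloured) along the bithorax complex (top) and the Antennapedia complex (bottom), by distance in kb from the low-coordinate end of the window. Shading marks the longest stretch with no region in all 5 lists, 23.5 kb in the bithorax complex and 51.1 kb in the Antennapedia complex.

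When each complex was cut into 3 equal parts, a division chosen after the values were seen and not tested, the combined list covered 15.9%, 13.2% and 32.9% of the bithorax complex from its low-coordinate end. The replicate lists averaged 1.33 ± 1.91%, 2.53 ± 1.45% and 3.47 ± 2.40% in the same parts. In the Antennapedia complex the combined list covered 19.8%, 18.1% and 12.0%, and the replicate lists averaged 2.80 ± 0.63%, 3.31 ± 2.56% and 0.903 ± 0.609%. In the high-coordinate part of the bithorax complex replicate 3 had 0% covered, against 5.48%, 4.01% and 4.41% in replicates 1, 2 and 4. The order of the parts in the bithorax complex was therefore the same in the combined list and the replicate mean only for the highest of them. The SDs of its replicate means overlap.

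The longest stretch of the bithorax complex without a region of the combined list was 3R:12623449-12661278, at 37.8 kb, and 1 region of replicate 2 lay within it. The next were 3R:12686379-12706144, at 19.8 kb with no region of any replicate list, and 3R:12577863-12595903, at 18.0 kb with 1 region of replicate 4. The longest stretch of the Antennapedia complex was 3R:2630121-2681177, at 51.1 kb, and it held no region of any of the 5 lists. The next were 3R:2579906-2606535, at 26.6 kb and likewise empty in every list, and 3R:2791889-2813341, at 21.5 kb with 1 region of replicate 3. The Antennapedia stretch was thus free of calls in all 5 lists over its whole length, whereas the replicate 2 region split the bithorax stretch, whose longer piece was 23.5 kb.

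Many windows of the same length on 3R held a longer free stretch, although few of all free stretches of the arm were that long. On the rest of 3R, 95 of 3599 free stretches of the combined list (2.64%) were longer than the longest of the bithorax complex. For the Antennapedia complex 55 (1.53%) were longer. In the combined list 56 of 80 windows of 330 kb (70%) had a longer free stretch than the bithorax complex, with a window median of 48.3 kb. For the Antennapedia complex 40 of 73 windows of 360 kb (54.8%) had a longer one, with a median of 55.1 kb. When all 5 lists were joined, 74 of 80 windows (92.5%) exceeded the 23.5 kb of the bithorax complex and 36 of 73 (49.3%) exceeded the 51.1 kb of the Antennapedia complex. In the combined list and the 5 joined lists, the longest free stretch of the bithorax complex was therefore shorter than in most windows of its length. That of the Antennapedia complex was near the middle. The median free stretch of the combined list was 4471 bp in the bithorax complex and 3272 bp in the Antennapedia complex. On the rest of 3R it was shorter, at 1687 bp. Free stretches of 10 kb or more took up 41.9% of the bithorax complex and 61.3% of the Antennapedia complex, against 49.3% of the rest of 3R. When the lower-scoring regions of the combined list (below its median) were dropped, the longest free stretch was 78.4 kb in the bithorax complex and 99.1 kb in the Antennapedia complex. Dropping regions cannot shorten a free stretch, and free stretches in the windows of 3R were not recomputed with this cut. A stretch without a region is one in which nothing was called, and it does not show that H1 was absent.

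**Figure D4:**
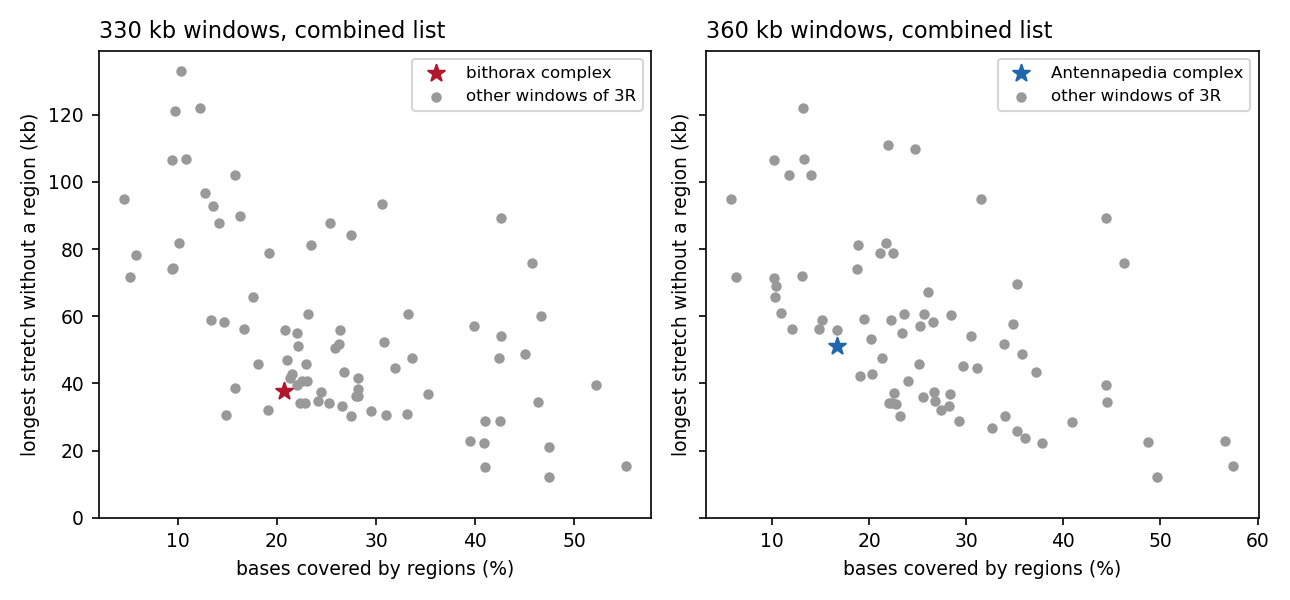
Longest stretch without a region of the combined list (kb, y axis) against bases covered (percent, x axis) in windows of 3R of 330 kb (left) and 360 kb (right). The stars mark the bithorax complex (20.7%, 37.8 kb) and the Antennapedia complex (16.6%, 51.1 kb), both among the grey points of the other windows.

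In single replicate lists the free stretches were longer, since each list holds few regions in the complexes. The longest one in the bithorax complex was 60.5, 133.7, 192.1 and 120.5 kb in replicates 1 to 4. Windows of 330 kb had medians of 129.9, 137.2, 128.8 and 111.7 kb, and 93.75%, 52.5%, 22.5% and 46.25% of them had a longer one. The longest one in the Antennapedia complex was 125.4, 80.1, 126.2 and 121.1 kb. Windows of 360 kb had medians of 139.6, 150.9, 140.9 and 112.1 kb, and 64.4%, 93.2%, 60.3% and 41.1% of them had a longer one. Replicate 3 had the longest in both complexes. With the 4 replicate lists joined, the longest was 49.2 kb in the bithorax complex, 3R:12665385-12714620, and 65.2 kb in the Antennapedia complex, 3R:2628107-2693322. The Antennapedia one contains the 51.1 kb stretch of the combined list, and the bithorax one lies elsewhere than the 37.8 kb stretch.

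By 10 kb tiles from the low-coordinate end, the combined list left 5 of 33 bithorax tiles uncovered (15.2%) and 12 of 36 Antennapedia tiles (33.3%), against 867 of 2719 (31.9%) on the rest of 3R. The uncovered bithorax tiles were 3R:12580000-12589999, 3R:12630000-12659999 (3 tiles) and 3R:12690000-12699999. Uncovered tiles of the Antennapedia complex included 3R:2580000-2599999 and 3R:2640000-2679999, inside its longest free stretches. The most covered tile was 3R:12730000-12739999 in the bithorax complex, at 69.6%, and 3R:2570000-2579999 in the Antennapedia complex, at 56.6%. No replicate list had a region in the bithorax tile, whereas replicates 1, 3 and 4 each had one in the Antennapedia tile.

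Regions of the combined list that followed each other at gaps of 2 kb or less were joined into blocks of 2 or more. The bithorax complex had 10 blocks with 24 of its 42 regions (57.1%), and the Antennapedia complex had 12 with 28 of 40 (70%), against 74.6% of the regions on the rest of 3R. Blocks took up 14.9% and 15.0% of the complexes, against 26.0% of the rest of 3R. Blocks were not fewer, at 3.03 per 100 kb in the bithorax complex and 3.33 in the Antennapedia complex, against 2.67 on the rest of 3R. The complexes thus had more blocks per length and less of their length in them.

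The widest bithorax block was 3R:12728433-12738603, 10.2 kb with 4 regions, which covered 81.9% of it. It was followed by 3R:12776131-12783147, at 7.02 kb with 4 regions, and by 3R:12797413-12803538, at 6.13 kb with 2 regions. All 3 lay in the high-coordinate part of the complex, and only the last was touched by a replicate list, that of replicate 1. The widest of the Antennapedia complex were 3R:2513878-2522174, at 8.30 kb with 5 regions and touched by replicate 3, and 3R:2572052-2579905, at 7.85 kb with 3 regions and touched by replicates 1, 3 and 4. The next, 3R:2614418-2620020, was 5.60 kb wide with 2 regions and was touched by no replicate list. On the rest of 3R, 225 of 727 blocks (30.9%) were wider than the widest of the bithorax complex and 288 (39.6%) wider than the widest of the Antennapedia complex.

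Few combined regions of the Hox complexes were touched by a replicate list. At least 1 replicate list touched 12 of 42 regions in the bithorax complex (28.6%) and 13 of 40 in the Antennapedia complex (32.5%), together 25 of 82 (30.5%), against 48.2% of all combined regions of 3R. At least 2 lists touched 3 in each complex, together 6 of 82 (7.32%), against 16.6% on 3R. At least 3 lists touched 0 of 82, against 4.57% on 3R. All 3 shares were thus below those of the arm. The replicate lists also held fewer regions in the complexes, at 1.56 ± 0.61 per 100 kb against 2.55 ± 0.44 on the rest of 3R (SD, n = 4). With fewer replicate regions, fewer combined regions can be touched, and the shares were not adjusted for this. The gap depended on the overlap required: when a replicate list had to cover 50% of the combined region, the count in the complexes stayed at 25 of 82 (30.5%), against 36.3% on 3R. Of the 82 regions 53 were narrower than the 3R median. Of those at or above that median, 1602 bp, 15 of 29 (51.7%) were touched in the complexes, against 69.1% on 3R. Of the narrower ones 10 (18.9%) were touched, against 27.3% on 3R. The shares were below the arm's in both width classes.

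**Figure D5:**
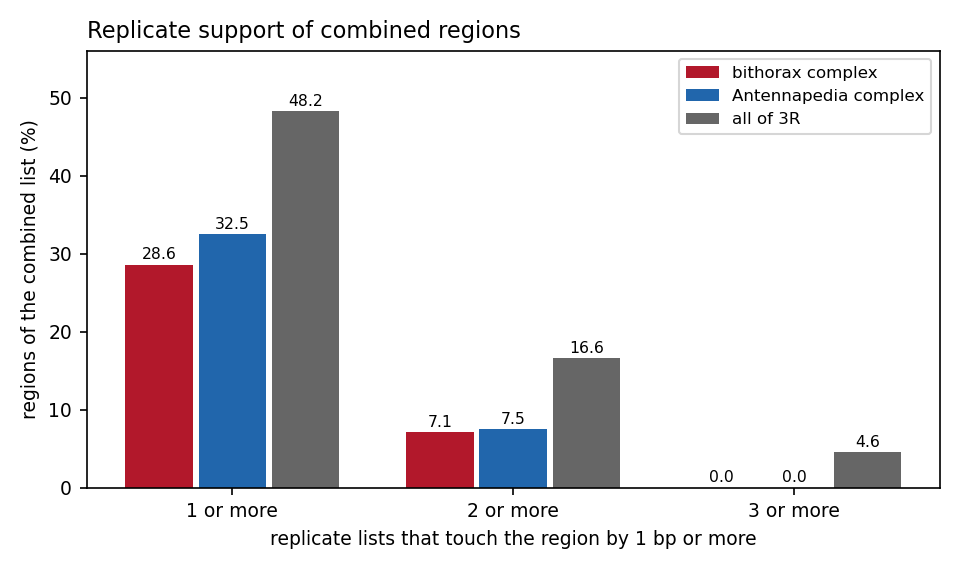
Regions of the combined list (percent, y axis from 0) touched by 1 or more, 2 or more and 3 or more replicate lists, for the bithorax complex (42 regions), the Antennapedia complex (40 regions) and all of 3R (3679 regions). In each group both complexes are below 3R, and no region of either complex was touched by 3 lists.

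The 6 regions touched by 2 lists are named here after their values were seen. In the bithorax complex they were 3R:12612422-12615468, touched by replicates 1 and 2, 3R:12720905-12723737, touched by replicates 1 and 4, and 3R:12787469-12788818, touched by replicates 2 and 4. Those of the Antennapedia complex were 3R:2577151-2579905, touched by replicates 1 and 3, 3R:2694619-2696484, touched by replicates 2 and 4, and 3R:2698366-2699856, touched by replicates 1 and 2. Replicate 1 touched 4 of the 6 and replicate 3 touched 1.

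The share of replicate regions that recurred in another list was lower in the complexes than on the arm. Of 43 replicate regions in the complexes, 15 (34.9%) overlapped a region of another replicate list, 8 of 21 in the bithorax complex and 7 of 22 in the Antennapedia complex, against 46.4% on 3R. Of the same 43, 32 (74.4%) overlapped a combined region, against 89.4% on 3R. By replicate these were 14 of 15, 6 of 12, 2 of 5 and 10 of 11. Almost all regions of replicates 1 and 4 in the complexes therefore overlapped a combined region by 1 bp or more. A smaller share of those of replicates 2 and 3 did. On 3R as a whole the same order held, at 98.0%, 80.7%, 78.0% and 97.3%. At least 1 of the 4 replicate lists covered 8.68% of the bases of the complexes, against 14.3% of the rest of 3R. Of those bases 90.0% were covered in 1 list, 10.0% in 2 and 0 in 3 or 4, against 82.9%, 15.0% and, for 3 and 4 lists, 1.96% and 0.106% on the rest of 3R. Overlap between replicate lists also depends on how many regions they hold, which was lower per length in the complexes. The shares of recurring regions and bases were not adjusted for this.

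Each region carries a score, the authors' own value, of unstated scale, and it was ranked only within its own list. In the replicate lists 29.7 ± 6.91% of the regions in the complexes scored at or above the 3R median of their list (SD, n = 4), against 50.4 ± 0.18% on the rest of 3R. The counts in the complexes were 2 to 4 regions per list. The rest of 3R holds nearly all the regions that set this median, so its share and small SD follow from the cut. In the combined list 18 of 82 regions (22.0%) were in the top 25% of 3R by score, 8 of 42 in the bithorax complex and 10 of 40 in the Antennapedia complex. By width 11 of 82 (13.4%) were in the top 25%, at 2250 bp or more. Regions in the complexes were thus about as often high in score as elsewhere on the arm in the combined list, while the share of wide ones was lower.

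The widest combined regions of the bithorax complex were 3R:12800316-12803538, at 3223 bp, 3R:12612422-12615468, at 3047 bp, and 3R:12720905-12723737, at 2833 bp, and each was touched by replicate 1. Those of the Antennapedia complex were 3R:2577151-2579905, at 2755 bp, 3R:2538715-2541136, at 2422 bp, and 3R:2557171-2559545, at 2375 bp, and each was again touched by replicate 1. The regions of highest score in the bithorax complex were 3R:12756493-12757521, at the 99.3rd percentile of 3R, 3R:12715990-12717334, at the 92.3rd, and 3R:12685216-12686378, at the 91.8th. Highest in the Antennapedia complex were 3R:2518094-2519270, at the 98.5th percentile, 3R:2752026-2753033, at the 95.1st, and 3R:2735102-2736109, at the 91.1st. The 6 high-scoring regions were narrow, 1008 to 1345 bp, and 3 of them were touched by 1 replicate list and 3 by none. No region was among both the 3 widest and the 3 of highest score of its complex.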

How the data were processed

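Each deposited list holds the start, end and score of the authors' enriched regions on FlyBase release 5, per the file headers. The submitters' processing notes name Bowtie 0.12.7, a read aligner. Not given in the sources used here are the region caller, its threshold, how the replicates were combined and the scale of the deposited score. Read counts are not part of the lists: library depth is unknown, and no counting interval could be given. The input libraries come with no values of their own and were not analysed here.

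From the lists, covered bases, free stretches, blocks (2 or more regions at gaps of 2 kb or less) and 10 kb tiles were computed with Python 3.11.15, numpy 2.4.6, scipy 1.17.1 and matplotlib 3.10.9. Overlaps needed 1 bp. Covered shares were compared per replicate as log2 ratios by an exact permutation test that flips their signs (two-sided). Interval steps were tested on simulated lists, with 200 of 200 recovered. Windows were tiled from the first base of 3R, leaving out those overlapping either complex. Genes were not placed, as the names table is on Release 6, where 8 of 8 Hox names matched. The genes, windows and lists were chosen with earlier results of these data known. Regions named in each complex are the 3 widest and 3 of highest score, the 3 longest free stretches, the 3 widest blocks, and the most and least covered tiles. Alternatives were other reference sequences, score limits, equal list sizes, shortened windows, other flanks and each replicate left out.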

Additional observations from a re-analysis of the deposited data

Results flagged for a closer look

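Of 36 measures compared over the 4 replicates, 5 had 1 replicate far from the others. Chance would give about 1.8 (about 1 in 20 groups) if the measures were separate. Many of them share the same regions, and some rest on few regions, so no excess over chance is read from this. Replicate 3 was the distant one in 3 of them. The log2 ratio of the bithorax complex to the rest of 3R was -3.32 in replicate 3, against -0.65 to -0.21 in the others, and its list held 1 region there. The median width of regions in both complexes was 1341 bp in replicate 3, against 1497 to 1523 bp in the others. The share of regions in both complexes that scored at or above the 3R median was 40% in replicate 3, of 5 regions, against 25% to 27.3% in the others. The longest free stretch of the Antennapedia complex was 80119 bp in replicate 2, against 121123 to 126182 bp in the others. The high-coordinate part of the Antennapedia complex, when cut into 3 equal parts, had 0% covered in replicate 1, against 1.12% to 1.33% in the others.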

How the results depend on the processing

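Of the 52 recomputed log2 ratios of a complex to the rest of 3R or to its flanks, 51 were below 0. The exception was the bithorax complex against flanks of 100 kb, at 0.19, a ratio of mean shares because 1 replicate had no region in those flanks. The recomputed ratios all come from the same libraries, so their number is no count of separate tests. All 4 replicate lists were below 0 in each main comparison, so means with replicates left out could only be below 0. Leaving out 1 replicate gave -1.50 to -0.46 for the bithorax complex against the rest of 3R, -1.22 to -0.69 for the Antennapedia complex and -1.18 to -0.58 for both, and -1.91 to -0.85 for the bithorax complex against its flanks. The ratio of the bithorax to the Antennapedia complex changed sign with equal numbers of regions per list (0.15), with the combined list (0.31) and without replicate 3, its range with 1 replicate left out being -0.66 to 0.29. When only the upper part of each list by score was kept (its median and above), the log2 ratio to the rest of 3R was -2.12 for the bithorax complex (a ratio of mean shares, as 1 replicate had no such region there), -1.60 for the Antennapedia complex and -1.78 for both. In that setting 21.25% of windows were less covered than the bithorax complex in the combined list and 7.5% in the replicate mean, and 12.3% were less covered than the Antennapedia complex in the replicate mean. The longest free stretches were then 78.4 kb in the bithorax complex and 99.1 kb in the Antennapedia complex, with no value for windows of 3R under the same cut. Without 1 replicate, the combined regions touched numbered 7 to 12 in the bithorax complex, 8 to 12 in the Antennapedia complex and 15 to 24 in both, the lowest without replicate 1. The causes were not tested. Set against 2L and 3L, or with shortened windows, the Antennapedia complex was below in 3 of 4 lists. Replicates 1 and 2 alone, replicates 3 and 4 alone, and the union of all lists were chosen after the data were seen. No paired analysis was possible because the inputs, which share replicate numbers with the immunoprecipitated ones, come with no values analysed here.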
